A study of Rattus norvegicus with 50 samples.

Results

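The comparison described here sets the blood of 5 rats 21 days after an injection of monosodium iodoacetate (MIA) into a knee against the blood of the same 5 rats at day 0, just before the injection. It holds 10 of the 50 arrays of the series, those of MIA replicates 1, 2, 3, 5 and 6, chosen by the treatment, day and replicate in the sample labels. MIA blocks an enzyme of glycolysis in cartilage cells, and the cartilage loss that follows makes it a common model of painful osteoarthritis. The animals were male Wistar rats, each bled from the tail vein on 5 days, and their age was not given. MIA rats were anaesthetised and injected into the right knee, whereas the 4 naive rats stayed intact, so the series holds no rat injected with saline alone. MIA replicate 4 was left out at every day because its array at day 21 stood apart: its log2 signals had a standard deviation of 1.0 and it had a mean correlation of 0.243 with the other arrays. The 10 arrays compared had standard deviations of 1.84 to 1.96, medians of 2.23 to 2.35 and mean correlations of 0.934 to 0.952.

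Rat blood carries RNA of several kinds of cell at once. Reticulocytes, the youngest red cells, have lost the nucleus but still hold messenger RNA, which they degrade together with their mitochondria within days. Natural killer (NK) cells and killer T lymphocytes store granzymes and perforin in granules, with which they kill target cells, and neutrophils are the first leukocytes to leave the blood for injured tissue. The labelled tissue held up against its markers: the globin gene Hbb-b1 lay between 12.08 and 12.19 at day 0, close to the top of the scale, while the median level of 11 keratinocyte markers was 2.02 and that of 8 skeletal muscle markers 2.15, beside 2.26 over all probe sets. In whole blood, fewer cells of a type and less RNA per cell cannot be told apart.

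By day 21 far more transcripts of MIA rats had fallen than had risen. A moderated linear model (limma) was fitted to the log2 signals of the 45 arrays of 9 rats, with 1 mean for each treatment and day, and transcripts with a p under 0.05 after Benjamini-Hochberg adjustment over all probe sets were called. Of 36685 transcripts, 199 were called (0.542%), of which 24 were higher (0.0654%) and 175 lower (0.477%). On the 10 arrays of the comparison alone, without the spread shared with the other arrays, limma called none, with or without the rat as a block (4528 and 4658 at an unadjusted p under 0.05). In all, 4507 transcripts had an unadjusted p under 0.05 (12.3%). The called changes ran in size from 0.40 to 1.57 on the log2 scale, with a median of −0.70 among the lower and 0.70 among the higher transcripts, beside −0.02 over all transcripts. The transcripts called lower had a median level of 6.87 and those called higher 4.76, where all transcripts had 2.26. In 195 of the 199 the direction was the same in all 5 rats. The 5 arrays of day 21 lay wholly below those of day 0 for 150 of the 175, and wholly above for 18 of the 24, where 1.85% and 0.93% of all transcripts were separated in these ways. The 199 were called on these same arrays, so the shared direction and the separation largely follow from the selection and are no further support.

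Because the same animals were bled on both days, the model was also fitted with the rat as a block. It then called 775 transcripts (2.11%), 171 higher (0.466%) and 604 lower (1.65%), and all 199 were among them. In this block, the one meant below unless stated, each rat has its own fixed level. With the rat as a random effect instead (a random block), 283 were called, 37 higher and 246 lower. A shift of every array to the same median left 31 higher and 107 lower, and a second quantile normalization gave 80 higher and 272 lower, so the surplus of lower calls stayed but its share moved. Of the 199 transcripts, 101 carry 1 gene symbol, 7 of them higher and 94 lower, and the other 98 carry none or several and are not named. Calls depended on single animals. Without MIA replicate 3 the model called 26 transcripts, all among the 199, and without MIA replicates 1, 2, 5 or 6 it called 102, 68, 55 and 116. The sign was kept in all 199 in each of these fits. For the 195 with the same direction in all 5 rats this was fixed in advance. When 1 of the 9 rats was left out at a time, 8 genes stayed called in every fit, the higher Gzma and the lower Gng12, Gpr4, Slc16a10, Slc16a1, Suds3, Plcl2 and Gda.

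The strongest rise was in granzymes. Gzma, which encodes the trypsin-like protease granzyme A of cytotoxic granules, had log2 signals of 3.02, 3.26, 4.00, 3.59 and 3.86 at day 0 and of 5.28, 5.06, 5.15, 4.74 and 5.33 at day 21 in MIA replicates 1, 2, 3, 5 and 6. Every rat was higher at day 21, and the days did not overlap. The rise was 1.57 (standard error 0.27, adjusted p = 0.00251 from limma, and 3.67e-05 with the rat as a block), and over the omission of single rats the adjusted p was at most 0.0452. Gzmk, a related granule protease, went from 3.63, 4.43, 4.17, 4.05 and 4.47 to 5.44, 5.61, 5.49, 5.05 and 5.13. It too was higher in all 5 rats without overlap, by 1.19 (standard error 0.22, adjusted p = 0.00334), but missed the threshold without MIA replicate 3 (adjusted p = 0.0592).

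Naive rats bled on the same days had changes of the same sign for both granzymes. Gzma was higher by 0.95 there (standard error 0.31, adjusted p = 0.173), in 4 of 4 rats, and Gzmk rose by 1.07 (standard error 0.24, adjusted p = 0.0483). The larger MIA change of Gzma started from lower levels: the day 0 arrays of the MIA rats ended at 4.00 and those of the naive rats began at 4.36, whereas at day 21 the means were 5.11 and 5.50. Subtracted from the MIA change, this left 0.62 for Gzma (standard error 0.41, unadjusted p = 0.14) and 0.13 for Gzmk.

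Beyond the granzymes, no other cytotoxic gene passed without the block. The gene lists used here and below were written with earlier results of these data known, so their counts are descriptive only. Of 24 NK and cytotoxic cell markers measured, 2 rose, none fell and 22 did not pass, beside 0.0481% of genes called higher with 1 probe set per gene. Their median change was 0.33, beside −0.04 over all 14562 genes, and in single rats it ran from 0.14 to 0.67. A random block passed 3 of the 24. With the rat as a fixed block, 6 passed (0.508% of genes called higher). The additional ones were Nkg7, a granule membrane protein, at 0.94, Prf1, the pore-forming perforin, at 0.78, Ccl5, a chemokine of activated T and NK cells, at 0.72, and Klrc1, an NK receptor, at 0.74, each higher in all 5 rats. The receptor genes Klrd1 and Ncr1 stood at 0.62 and 0.58 without passing in either fit (with the block, adjusted p = 0.123 and adjusted p = 0.18). The granzyme genes Gzmb and Gzmm changed by 0.30 and 0.13, and the cytokine genes Ifng and Xcl1 by −0.00 and −0.12. Not all members of the list thus stood with Gzma.

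**Figure D1:**
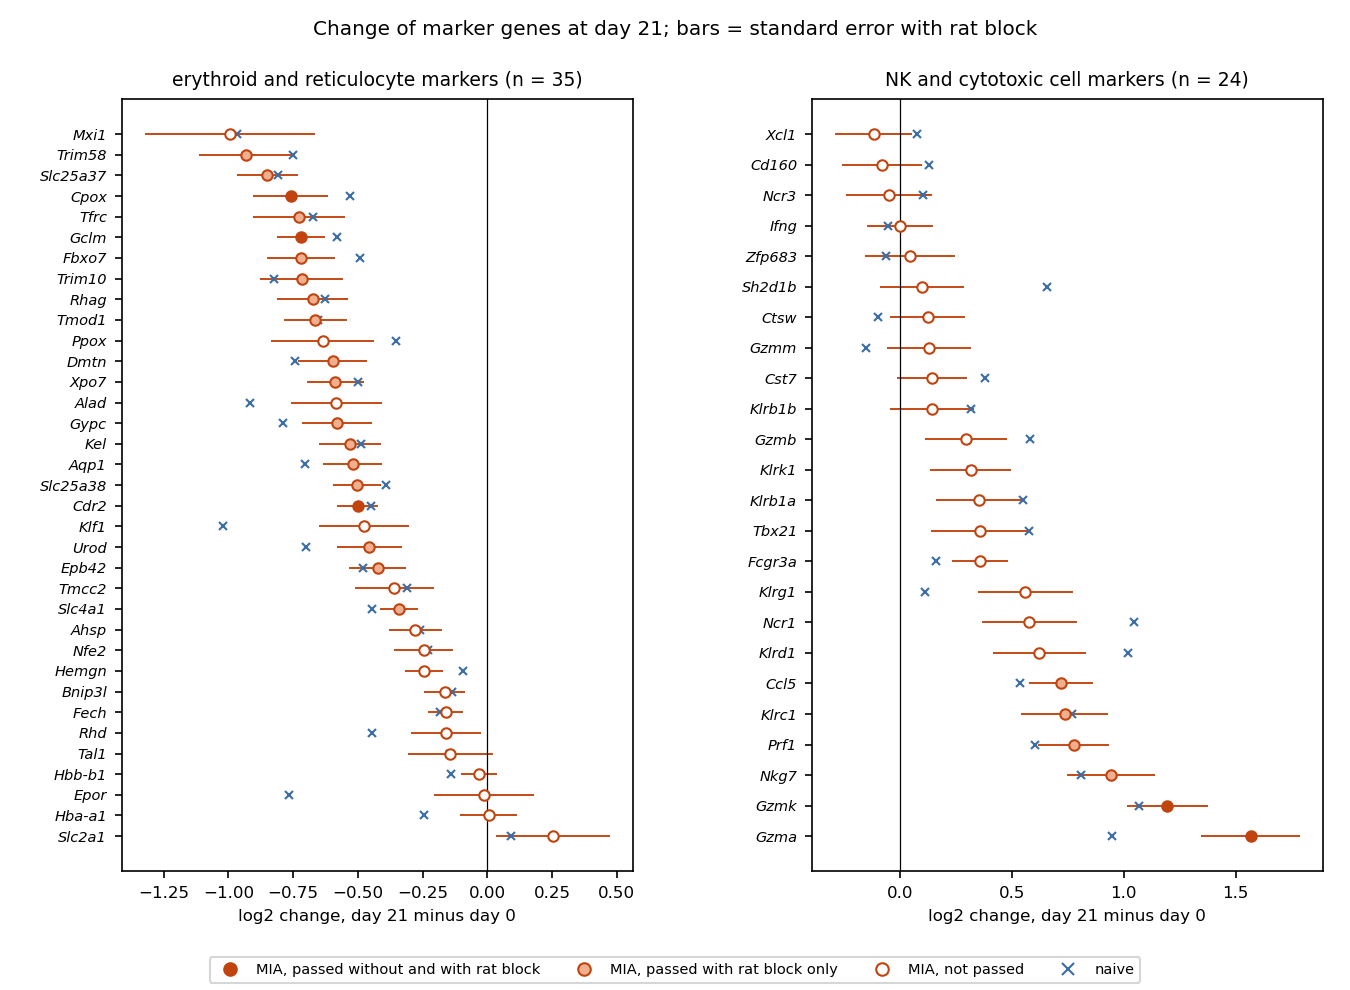
Log2 change from day 0 to day 21 of the erythroid (left) and NK (right) markers measured, as points with standard errors (rat as a block) for the 5 MIA rats, filled dark where passed without the block, and as crosses for the 4 naive rats. Nearly all erythroid genes lie left of 0, with Hba-a1 and Hbb-b1 at it, and Gzma and Gzmk lie farthest right at 1.57 and 1.19.

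One microRNA gene was called. The probe set of rno-mir-15b, the precursor of a microRNA that targets cell cycle and survival genes, had signals of 2.13, 1.82, 2.34, 2.96 and 3.37 at day 0 and of 4.37, 3.90, 3.51, 3.67 and 3.25 at day 21. It was higher in 4 of 5 rats, by 1.21 on average (standard error 0.28, adjusted p = 0.0339), and the days overlapped because replicate 6 had the highest level at day 0 and the lowest at day 21. The call was lost without MIA replicate 1, 2, 3 or 5, with adjusted p-values up to 0.263. In naive rats the change was 0.74 (adjusted p = 0.323). The array does not tell the arms of the hairpin apart. Both mature arms are shown, because this is the only microRNA gene among the calls, from RefSeq on GRCr8, with the seed (bases 2 to 8) in capitals. They lie on chromosome 2, plus strand, at chr2:155555197-155555218 and chr2:155555235-155555256.
rno-miR-15b-5p: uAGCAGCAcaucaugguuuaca
rno-miR-15b-3p: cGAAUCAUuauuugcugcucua
The precursor lies within Smc4, a condensin gene, beside the gene of rno-mir-16. Smc4 itself was at 6.49 at day 0 and 6.45 at day 21 (change −0.03, standard error 0.19, adjusted p = 0.963). The neighbour rno-mir-16 changed by 0.48 in MIA rats (standard error 0.30, adjusted p = 0.536 from limma), with overlapping days, and by 0.61 in naive rats. The day 0 signals of rno-mir-15b lay around the median level of all transcripts (2.26).

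The remaining higher genes had no common list. Retnlg, a resistin-like gene of neutrophils, went from 6.33, 6.99, 7.28, 6.85 and 6.82 to 8.63, 8.17, 7.81, 7.34 and 7.35 and rose by 1.01 (standard error 0.24, adjusted p = 0.0338). The days did not overlap, and replicates 1 and 2 rose most. Btg1, an antiproliferative gene of resting lymphocytes, rose by 0.64 (standard error 0.16, adjusted p = 0.0452), and Rpph1, the RNA of ribonuclease P, rose by 0.47 (standard error 0.11, adjusted p = 0.0395), both in 5 of 5 rats. Calcrl, a receptor subunit for the vasodilator peptides CGRP and adrenomedullin, rose by 0.63 (adjusted p = 0.0458) but was lower in 1 of the 5 rats, and it was named after its values were seen. None of Retnlg, Btg1 and Rpph1 passed when any 1 MIA rat was left out (adjusted p up to 0.206, 0.221 and 0.204), and Calcrl did so only without MIA replicate 6. With the excluded day 21 array of replicate 4 put back, Btg1 and Rpph1 had changes of −0.57 and −0.72 that did not pass.

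Retnlg was the only one of 28 neutrophil markers to pass, where 0.0481% of all genes were called higher. The list had a median change of 0.24 (in single rats 0.00 to 0.41), and with the rat as a block 6 members were higher, beside 0.508% of all genes, and none lower. A random block gave only 1 higher. On all 50 arrays the change of Csf3r turned sign, as did that of Prf1 among the cytotoxic genes. The 6 include Csf3r, the receptor for granulocyte colony-stimulating factor, at 0.78, and Cxcr2, a chemokine receptor, at 0.82. In naive rats their changes were 0.78 and 0.90.

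Red cell genes lay below their day 0 level nearly throughout, though few passed. Of 35 erythroid and reticulocyte markers measured, 3 fell, none rose and 32 did not pass, beside 0.639% of genes called lower with 1 probe set per gene. The median change was −0.50, 33 of the 35 were lower on average, and the median in single rats ran from −0.74 to −0.23. A random block gave 6 of the 35 lower and none higher. With the rat as a fixed block, 19 of the 35 were lower and none higher (2.45% of genes called lower). Without MIA replicate 3 or without replicate 5, no member passed in the model without the block, and 11 and 12 passed with it. Gclm, a subunit of the enzyme that starts glutathione synthesis, went from 10.00, 10.10, 10.10, 9.94 and 9.69 to 9.57, 9.41, 9.29, 8.80 and 9.15. It fell by 0.72 without overlap (standard error 0.13, adjusted p = 0.00253), and the adjusted p reached 0.0593 when a MIA rat was left out. Cpox, an enzyme of heme synthesis, fell by 0.76 (standard error 0.18, adjusted p = 0.0347) and Cdr2, a coiled-coil protein gene, by 0.50 (standard error 0.11, adjusted p = 0.0161), each lower in 5 of 5 rats and separate between days. Cpox did not pass without any 1 of the MIA rats (adjusted p up to 0.155) and Cdr2 not without replicate 3 or 5 (up to 0.108).

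Several further genes of iron uptake and the red cell membrane passed only with the block. Slc25a37, which carries iron into mitochondria, changed by −0.85 (adjusted p = 0.0547, with the block 3.59e-05). Tfrc, the transferrin receptor, stood at −0.73, Slc4a1, the band 3 anion exchanger, at −0.34 (adjusted p = 0.0502, with the block 0.0069), Tmod1, a capper of actin filaments in the membrane skeleton, at −0.66, and Trim58, a ubiquitin ligase of late erythroblasts known from mouse, at −0.93. Slc4a1 had values of 11.35 to 11.61 at day 0 and of 11.06 to 11.24 at day 21, with no overlap. The master regulator Klf1 stood at −0.48 without passing in either fit (−1.02 in naive rats, adjusted p = 0.0522), and Epor, the erythropoietin receptor, at −0.01.

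The globin genes did not follow. Hba-a1 changed by 0.01 (standard error 0.11) and Hbb-b1 by −0.03 (standard error 0.07), with 2 and 4 of 5 rats lower. Their signals, near 11.72 and 12.15, are among the highest on the array, and globin copies are near identical, so that probes can share their transcripts. Bnip3l, a mitophagy receptor, and Fech, the last enzyme of heme synthesis, stood at −0.16 each, and Slc2a1, a glucose transporter, was higher on average, at 0.25 without passing.

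Some erythroid genes differed more between rats than between days. Xpo7, a nuclear export factor of maturing erythroblasts in mouse, had signals of 11.14, 11.19 and 11.00 in MIA replicates 1, 2 and 3 at day 0, and of 9.20 and 8.80 in replicates 5 and 6. At day 21 the same rats had 10.59, 10.61 and 10.52 against 8.33 and 8.34. Every rat was thus lower at day 21, the smallest change being −0.46 and the largest −0.88, within a spread of over 2 between rats. The change was −0.59, with a standard error of 0.66 without the block (adjusted p = 0.762) and of 0.11 with it (adjusted p = 0.00147). Gypc and Kel, a glycophorin and a blood group protein gene, showed the same 3 rats above the other 2 on both days.

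Klf3, called lower, encodes a repressor that binds the same CACCC boxes as Klf1. It went from 8.35, 8.47, 8.33, 8.38 and 8.47 to 8.02, 8.18, 8.05, 7.66 and 7.80, a fall of 0.46 in 5 of 5 rats (standard error 0.09, adjusted p = 0.0121, and up to 0.106 when a MIA rat was left out). Among promoters, the 250 bases before the start of a gene were searched on both strands for AGATAA, a site of GATA factors, and for CCACACCC, a site of Klf1, which do not overlap each other. Of 27457 RefSeq promoters 10.0% held the first and 2.84% the second. They stood in 5 (18.5%) and 1 (3.7%) of the 27 erythroid markers with a promoter in the table, and in 4 and 4 (4.94% each) of the 81 genes called lower. Of 18 NK and cytotoxic markers, 1 (5.56%) held the first and 3 (16.7%) the second. Klf3 was the only gene called lower with both. It is shown with Trim58 and Rhd (a Rhesus protein gene at −0.16, not passed), which hold AGATAA or both, because they compare a called gene, one passed with the block alone and one not passed. The motifs, on either strand, are in capitals. On GRCr8 the windows are chr14:43850827-43851076 (minus strand), chr10:43523154-43523403 (plus) and chr5:152370950-152371199 (plus), and the start used for Klf3 lies inside the full span of the gene.
Klf3: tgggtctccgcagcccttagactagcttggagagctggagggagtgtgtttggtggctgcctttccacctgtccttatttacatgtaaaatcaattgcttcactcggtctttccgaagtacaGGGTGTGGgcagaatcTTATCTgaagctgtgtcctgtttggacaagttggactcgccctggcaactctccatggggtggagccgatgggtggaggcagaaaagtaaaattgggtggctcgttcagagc
Trim58: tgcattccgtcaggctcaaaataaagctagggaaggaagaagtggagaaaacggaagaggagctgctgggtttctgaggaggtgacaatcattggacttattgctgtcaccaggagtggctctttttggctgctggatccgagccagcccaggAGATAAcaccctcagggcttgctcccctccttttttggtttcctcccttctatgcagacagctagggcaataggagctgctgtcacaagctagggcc
Rhd: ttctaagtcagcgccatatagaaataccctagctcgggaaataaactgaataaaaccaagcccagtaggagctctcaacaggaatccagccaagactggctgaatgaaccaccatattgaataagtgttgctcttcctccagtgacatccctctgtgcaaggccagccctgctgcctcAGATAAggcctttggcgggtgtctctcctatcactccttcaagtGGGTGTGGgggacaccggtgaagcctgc
In Klf3 the motifs end 107 and 121 bases before the start, and in Trim58 and Rhd AGATAA ends 92 and 67 bases before it. A match describes the letters only.

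Among membrane transporters, a pair of related carriers fell. Slc16a10, an exporter of aromatic amino acids, went from 9.18, 9.28, 9.31, 9.31 and 8.93 to 8.41, 8.32, 8.22, 8.28 and 7.95. It fell by 0.97 with a wide gap between the days (standard error 0.16, adjusted p = 0.00104). Slc16a1, a carrier of lactate and pyruvate, went from 6.36, 6.59, 6.08, 6.37 and 6.15 to 5.51, 5.66, 5.30, 5.28 and 5.12, a fall of 0.94 (standard error 0.17, adjusted p = 0.00327). Both kept their call in every fit that left out 1 rat. Of 16 transporters of red and myeloid cells these 2 fell and none rose, beside 0.639% of all genes called lower, with a median change of −0.48 (−0.71 in naive rats). Since the list was written with earlier results of these data known, that count is no independent support. A random block gave 4 lower. With the fixed block 7 were lower, beside 2.45% of all genes, among them Abcb10, a mitochondrial transporter of the heme pathway, at −0.89.

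Some genes of autophagy, by which reticulocytes clear their organelles, fell as well. Rb1cc1, which encodes a scaffold of the kinase complex that starts autophagy, went from 7.72, 7.96, 7.85, 7.94 and 8.00 to 6.92, 7.35, 7.16, 6.83 and 7.19. It fell by 0.80 without overlap (standard error 0.14, adjusted p = 0.00253, and 0.0503 without MIA replicate 5). Wipi2, which marks the growing membrane, fell by 0.68 (adjusted p = 0.0339) and Nbr1, a cargo receptor, by 0.64 (adjusted p = 0.0321), and each lost its call without MIA replicate 2, 3, 5 or 6 (adjusted p up to 0.247 and 0.178). In all, 3 of 23 autophagy genes fell (0.639% of all genes), none rose and the median change was −0.24. A random block gave 4 lower. With the fixed block 7 were lower (2.45% of all genes), including Foxo3, a transcription factor, at −0.78 and Gabarapl1, a membrane tag, at −0.84.

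Several other genes with roles in late red cells were among those called lower, and they were chosen after their values were seen. Riok3, a kinase needed for enucleation in mouse erythroblasts, fell by 0.53 (adjusted p = 0.00253, and 0.0644 without MIA replicate 5). Ube2o, an enzyme that tags proteins for removal in reticulocytes, fell by 0.55, Ranbp10, a microtubule-binding protein, by 0.63 and Alox15, a lipoxygenase that attacks mitochondria of rabbit reticulocytes, by 0.58, each in 5 of 5 rats. Alox15 was listed with the eosinophil markers and was the only one of 17 to fall, from 11.40 to 11.91 at day 0 to 10.71 to 11.32 at day 21. These 3 lost their calls without MIA replicate 3 or 5 and at least 1 other (adjusted p up to 0.143, 0.137 and 0.15).

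Among named genes, the largest falls were in signalling and surface genes. Gng12, a gamma subunit of G proteins, went from 6.50, 7.67, 7.19, 6.53 and 6.83 to 5.69, 5.82, 5.73, 5.03 and 5.30. It fell by 1.43 (standard error 0.21, adjusted p = 0.000452), and the lowest day 0 value lay above the highest of day 21. Gpr4, a receptor that senses protons and is best known from vessel walls, went from 5.06, 5.65, 5.67, 4.78 and 5.12 to 4.33, 3.89, 3.46, 3.93 and 3.59 and fell by 1.41 (standard error 0.22, adjusted p = 0.000825). Sdc3, a heparan sulfate proteoglycan, went from 6.48, 6.58, 6.81, 5.96 and 5.86 to 5.41, 5.14, 5.17, 4.23 and 4.66 and fell by 1.42 (standard error 0.30, adjusted p = 0.0181), although not without MIA replicate 2, 3 or 5 (adjusted p up to 0.134).

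Smaller falls with small standard errors kept their calls too. Gda, guanine deaminase, went from 10.62, 10.69, 10.65, 10.57 and 10.41 to 9.98, 10.05, 9.97, 9.94 and 9.91, a fall of 0.62 (standard error 0.09, adjusted p = 0.000489). Plcl2, a phospholipase C-like protein gene without enzyme activity, fell by 0.67 (standard error 0.10, adjusted p = 0.000722), and Suds3, a subunit of the Sin3 repressor complex, fell by 0.75 (standard error 0.12, adjusted p = 0.000825). Both were separate between days, and the adjusted p stayed at or below 0.0287 over the omission of single MIA rats. These 3 genes were chosen after their values were seen.

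**Figure D2:**
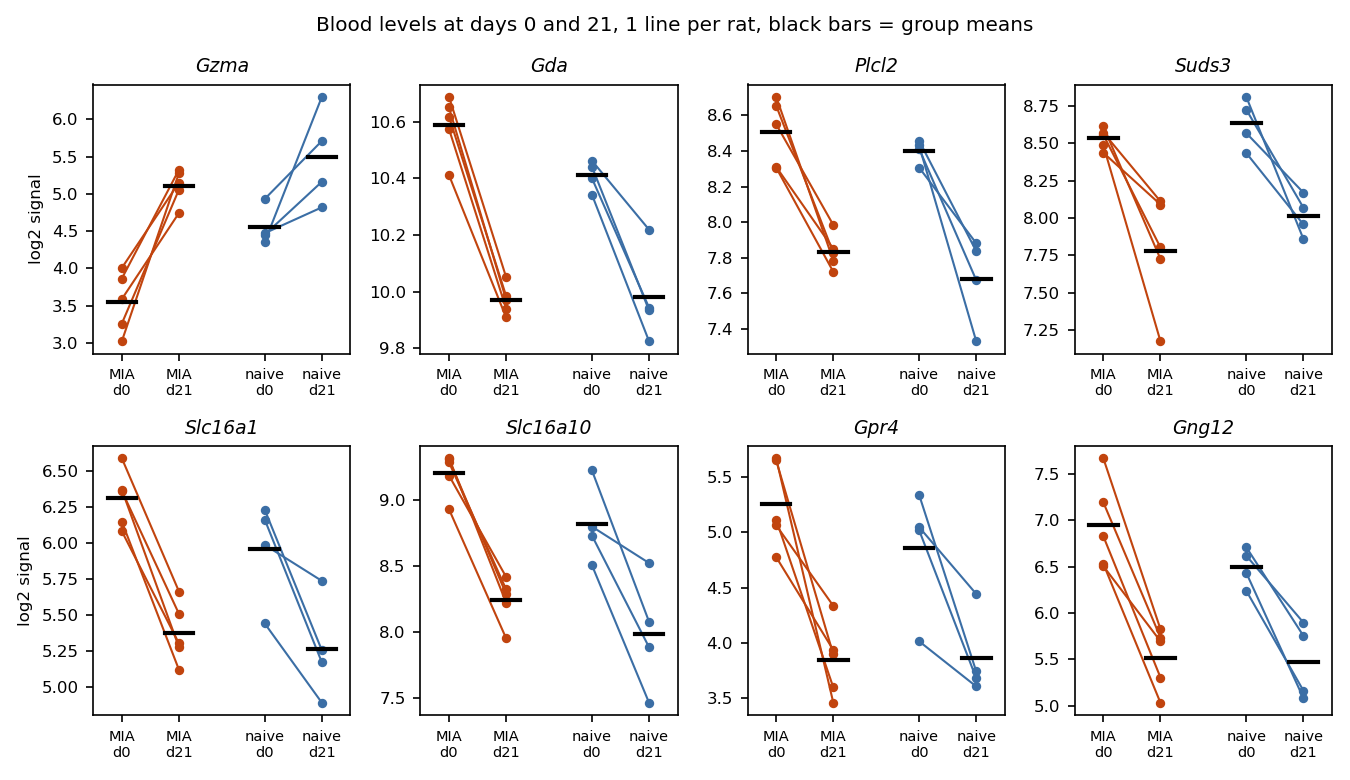
Log2 signals at days 0 and 21 of the 8 genes that stayed called whichever of the 9 rats was left out, with 1 line per rat for the 5 MIA rats and the 4 naive rats and black bars for group means. All lines of the MIA rats run up for Gzma and down for the other 7 genes, as do those of the naive rats.

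Of the 12 named genes with the largest falls, the other 8 were mostly enzymes. Gstm5, a glutathione transferase, fell by 1.14, Pck2, the mitochondrial enzyme that makes phosphoenolpyruvate, by 1.04, and Cmas, which activates sialic acid for glycan synthesis, by 1.03. Wdtc1, a substrate adaptor of a ubiquitin ligase, fell by 1.01, Mast2, a kinase bound to microtubules, by 0.99, and Yod1, a deubiquitinating enzyme, by 0.94. Both Eif2ak1, the kinase that halts translation when heme is short, and Eef2k, which slows elongation, fell (by 0.98 and 0.95). Adjusted p-values ran from 0.00872 for Cmas to 0.0437 for Eif2ak1 and Gstm5, and all 8 were lower in 5 of 5 rats. Each of them lost its call without MIA replicate 3 and also without MIA replicate 5, with adjusted p-values up to 0.291.

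Lists of other cell types and processes gave few calls. None of 24 T cell, 16 B cell, 9 MHC class II, 22 monocyte or 17 platelet markers passed, although the T cell median was 0.32 (from −0.05 to 0.52 in single rats) and only 1 of the 24 was lower on average. With the block, beside 0.508% of all genes called higher and 2.45% lower, the T cell gene Themis, the B cell gene Jchain, the MHC class II genes RT1-Da and Cd74 and the monocyte gene Lyz2 were higher (0.55, 0.55, 0.40, 0.33 and 0.47) and the monocyte gene Cd36 was lower (−0.59). On all 50 arrays the changes of Themis, RT1-Da, Cd74 and Lyz2 turned sign (−0.14, −0.81, −0.74 and −0.74). Among 26 AP-1 and immediate early genes, Btg1 rose and Fosl1, a Fos relative, fell by 0.73 (adjusted p = 0.0324, and up to 0.198 when a MIA rat was left out). With the block, Junb and Dusp1 were higher there as well, at 0.65 and 0.72. Of 34 cytokine and NF-kB genes none passed, and with the block Csf1, a growth factor of macrophages, and Il1b, interleukin 1 beta, were higher at 1.25 and 0.85. None of 23 interferon-stimulated genes, 31 proteasome, 28 cell cycle, 46 oxidative phosphorylation or 45 cytoplasmic ribosomal protein genes passed. With the block 6 oxidative phosphorylation genes, 3 cell cycle genes and the interferon-stimulated genes Isg20 and Cmpk2 (−0.46 and −0.59) were lower, and the ribosomal genes Rpl14 and Rpl34 were higher at 0.48 and 0.42, changes that turned sign on all 50 arrays.

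Of tissue that a tail puncture could add, neither 11 keratinocyte nor 8 skeletal muscle markers passed, with medians of −0.04 and 0.01. Of 9 endothelial markers, Cdh5, the cadherin of vessel walls, fell by 0.45 (adjusted p = 0.0365, and up to 0.188 when a MIA rat was left out), at levels of 1.20 to 2.00, below the median transcript on most arrays. Among 26 extracellular matrix genes, Sdc3 fell, and the median change was −0.23. Col1a1, a collagen chain of bone and skin, stood at −1.12 (adjusted p = 0.167, with the block 0.0407) with a change of −0.28 in naive rats. Col1a2, another collagen chain, stood at −1.36 in MIA rats (adjusted p = 0.11 from limma without the block). In the difference between MIA and naive rats no gene of this list was called. Of 13 glucocorticoid response genes and 10 clock genes none passed (with the block, Dusp1 and Il1r2 of the former did), and of 16 glycolysis genes only the carrier Slc16a1 did. Klf3 and Btg1 were the 2 calls among 13 genes of lymphocyte quiescence and homing, 1 lower and 1 higher.

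**Figure D3:**
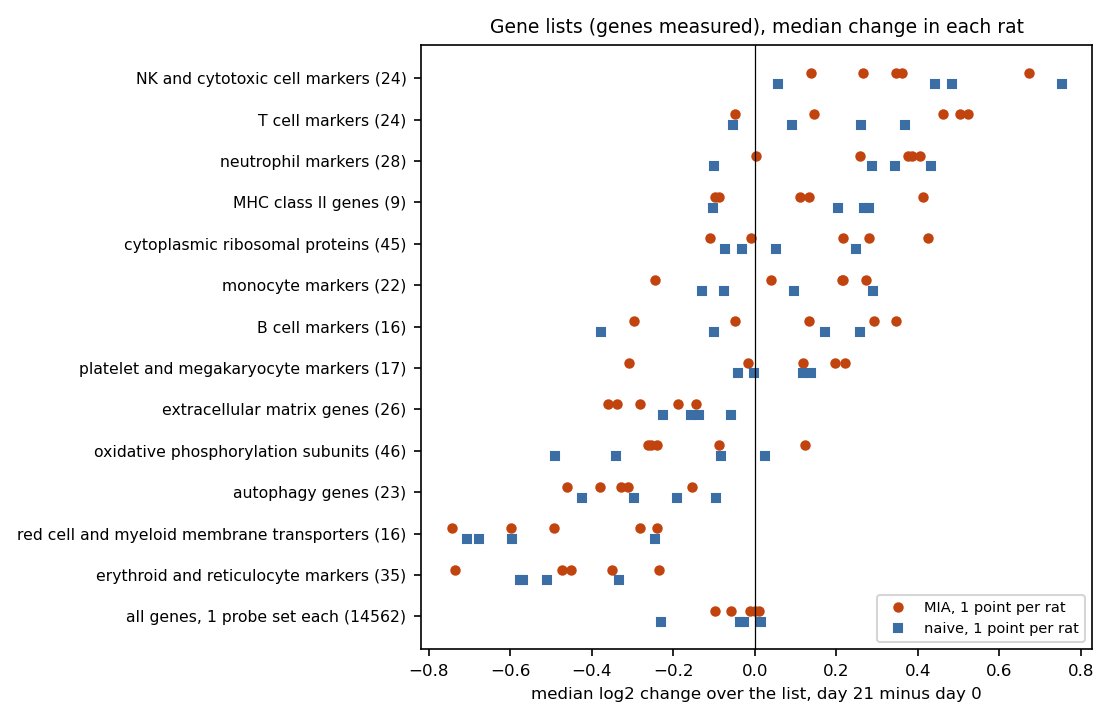
Median log2 change from day 0 to day 21 over the genes of each list (number of genes in brackets), with 1 point per rat for 5 MIA rats and 4 naive rats. The erythroid medians lie between −0.74 and −0.23 in all MIA rats, and the NK medians between 0.14 and 0.67.

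Naive rats showed much of the same shift over the same 21 days. There 66 transcripts were called (0.18%), 7 higher (0.0191%) and 59 lower (0.161%), and with the rat as a block 602 (1.64%), 105 higher (0.286%) and 497 lower (1.35%). Without naive replicate 3 limma called none in naive rats without the block (3414 at an unadjusted p under 0.05) and 217 with it. Of the 199 transcripts called in MIA rats, 192 (96.5%) had the same sign in naive rats, where 66.3% of all transcripts had, and 28 were called in both with the same direction, which is 14.1% of the MIA calls and 42.4% of the naive calls. The erythroid median was −0.49 in naive rats and the NK median 0.46. The 8 genes that kept their MIA call whichever single rat was left out all moved the same way in naive rats. Among them, Gng12 (−1.03), Slc16a10 (−0.83), Suds3 (−0.62) and Plcl2 (−0.72) fell there. Transcripts called lower in MIA rats had a median of −0.70 there and of −0.52 in naive rats, but each set was chosen in 1 group: the 59 called lower in naive rats had a median of −0.80 there and of −0.61 in MIA rats.

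Subtracting the naive change from that of MIA rats addresses whether the injection altered the course. No transcript was called in limma, with or without the block, and 1282 had an unadjusted p under 0.05 (3.49%). Among the 199, 21 did. These 199 were chosen by their MIA change, which is part of the difference, so their share cannot be set against that of all transcripts. The 5 named genes with the smallest p were Or1e20b, an olfactory receptor gene, at −0.88, Prr9, a proline-rich protein gene, at 0.80, Ythdf2, a reader of methylated RNA, at 0.76, Tmem86a, a membrane enzyme, at 0.71, and Sult5a1, a sulfotransferase, at 0.75 (unadjusted p from 0.000204 to 0.00117, adjusted p = 1.0 for each). In these genes the naive rats moved by 0.44 to 0.71 in size and the MIA rats by at most 0.32. Within MIA rats alone, the injection cannot be told apart from the time since day 0 and the earlier bleedings, which the naive rats share as well.

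**Figure D4:**
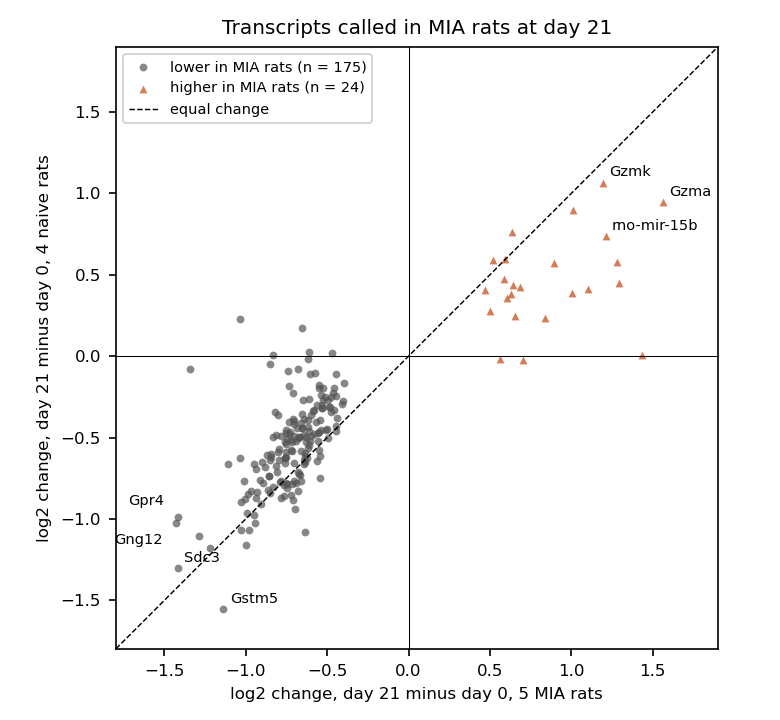
Log2 change from day 0 to day 21 in 5 MIA rats (horizontal) and 4 naive rats (vertical) for the 24 transcripts called higher and the 175 called lower in MIA rats, with a dashed line at equal change. Points gather at the lower left and the upper right, 192 of 199 with the same sign in both groups.

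Genes of the study's own patterns A to C were mostly below the threshold at day 21, where 0.477% of all transcripts were called lower. The study chose them on these samples by an ANOVA on time and treatment, not by day 21 against day 0. Median changes in MIA and naive rats were −0.25 and 0.12 over the 11 transcripts of pattern B. They were −0.02 and 0.20 over the 16 of pattern C, and 0.08 and −0.04 over pattern A. Of the 14 transcripts of pattern A none passed. In pattern B, Gpbp1l1, a gene of a putative transcription factor, fell by 0.44 (adjusted p = 0.047), and in pattern C a transcript that the study names Idl2l fell by 0.65 (standard error 0.14, adjusted p = 0.0182). The level of Idl2l was low, at up to 1.71 before and 0.69 to 1.02 after, and in naive rats it stood at 0.17. Without MIA replicate 3 the adjusted p was 0.276 for Gpbp1l1 and 0.152 for Idl2l. Tnk2, a tyrosine kinase, had a change of −0.59 (adjusted p = 0.123), Rpl19, a ribosomal protein gene, of 0.39 (adjusted p = 0.187) and Ppp1cb, a phosphatase subunit, of −0.37 (adjusted p = 0.198). Brca1, Gna13, Tead2, Kctd2 and Wdr37 lay between −0.09 and 0.26. Fam83h stood at −0.47, Elfn1 at −0.26, Ppargc1b at −0.15, and Ints7 and Strn4 at 0.08 each, none of which passed.

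The other days show when these levels were reached. Each day shares its day 0 arrays with the others, so the changes are only given side by side. At days 2 and 14 no transcript was called in limma, with 2159 (5.89%) and 2289 (6.24%) at an unadjusted p under 0.05, and at day 28 the count was 631 (1.72%). The granzymes were flat before day 21: Gzma stood at 0.29 and 0.16 on days 2 and 14, then at 1.57 and 1.67, and Gzmk at −0.04 and 0.06, then at 1.19 and 1.37. Lower genes were part of the way at day 14. Gng12 stood at −0.17, −0.84, −1.43 and −1.35 on the 4 days, Gpr4 at −0.26, −0.89, −1.41 and −1.52, and Slc16a10 at −0.25, −0.41, −0.97 and −1.15. The erythroid median was −0.22 at day 14, −0.50 at day 21 and −0.56 at day 28, and the NK median −0.01, 0.33 and 0.44. The precursor of rno-mir-15b stood at 0.41, 0.43, 1.21 and 1.25.

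**Figure D5:**
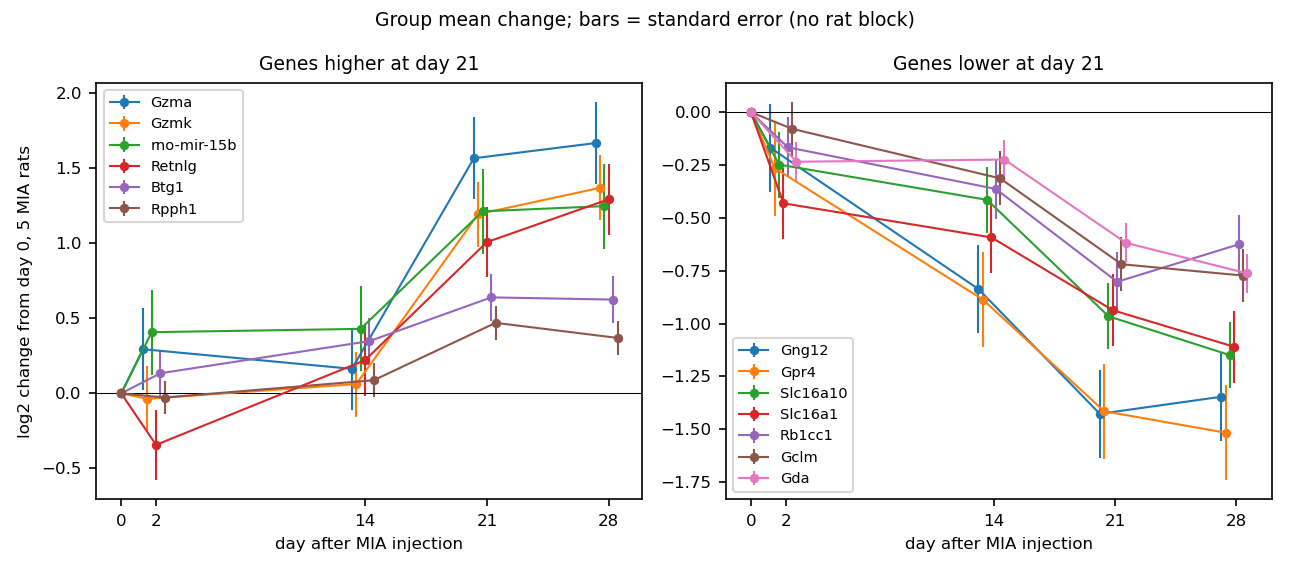
Mean log2 change from day 0 in 5 MIA rats at days 2, 14, 21 and 28, with standard errors (no block, points set slightly apart), for 6 genes higher (left) and 7 genes lower (right) at day 21. Gzma is at 0.16 on day 14 and at 1.57 on day 21, while Gng12 is already at −0.84 on day 14.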

How the data were processed

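Whole blood RNA was measured on 50 Affymetrix Rat Gene 2.0 ST arrays, 1 per blood sample. According to the methods, the authors applied background subtraction, quantile normalization and a log2 transform before the signals were deposited, and oligo 1.36.1 is named in the submitters' processing notes. How probes were summarized is not given in the sources used here. Of 36685 probe sets, 14830 carry 1 symbol in the platform table, 823 several and 21032 none. Of the 14830, 14676 were matched by gene number to RefSeq (GRCr8), and no symbol changed.

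Signals were fitted with limma 3.58.1 (R 4.3.3) on 45 arrays, with 1 mean per treatment and day, two-sided moderated statistics and Benjamini-Hochberg adjustment over all probe sets. The labels give the animal of each array, so numbers pair days within a treatment. After removal of group means, arrays of 1 rat correlated by 0.0362 to 0.134 on average, and those of different MIA rats by −0.0193. Rats are separate animals. A gene was taken as its brightest probe set.

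The comparison, its members, the 26 gene lists and the alternatives were chosen with earlier results of these data known. Named were up to 12 genes per direction with the largest change and the same direction in all 5 rats, up to 4 members per list, called microRNA genes, pattern genes of the study's text and 5 genes of the difference from naive rats. Others are marked where named. Lists are described by counts and medians. Plots used matplotlib 3.10.9 under Python 3.11.15. The fit was tested on simulated data. These had independent noise on each array and no rat effects, so repeated sampling of the same rat was not covered. Depth does not apply to arrays, and their number limits the precision. Alternatives were the rat as a block, other sets of arrays, scalings, variance priors, array weights, a filter on dim probe sets and leaving out each rat.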

Additional observations from a re-analysis of the deposited data

Results flagged for a closer look

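In 9 genes, the change from day 0 to day 21 of 1 rat lay apart from that of its group by Dixon's test, which chance gives in about 1 in 20 groups. Many genes were looked at, so flags in this number can arise by chance, and they were not tested further. Mast2 was at −0.58 in MIA replicate 1, the other 4 rats being at −1.20 to −1.04. Prf1 was at 0.41 in MIA replicate 5 against 0.82 to 0.96, and RT1-Da, an MHC class II gene, at 0.20 in the same rat against 0.42 to 0.49. RT1-DOa, of the same family, was at 1.26 in MIA replicate 1 against −0.15 to 0.24, and Nlrp3, an inflammasome gene, at 0.90 in that rat against 0.41 to 0.53. Pf4, a platelet chemokine gene, was at 0.16 in MIA replicate 3 against 0.34 to 0.35, and Maff, a small Maf factor, at −1.22 in MIA replicate 2 against −0.48 to −0.28. In naive replicate 4, Ccr3, the eotaxin receptor, was at 0.0417 against 0.86 to 0.89, and Il1rn, the interleukin 1 antagonist, at 0.77 against 0.57 to 0.59.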

How the results depend on the processing

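The counts of calls moved with the arrays and the model. Of 125 named genes, 32 turned sign on all 50 arrays: 2 of the 29 called, Btg1 and Rpph1 (−0.57 and −0.72), and 30 not called, among them Prf1, Csf3r, Rpl14, Rpl34 and Rpl19. Under the other alternatives 6 turned, none of them called. In MIA rats (199 calls, 24 higher and 175 lower) the rat as a block gave 775, 171 and 604, and a random block 283, 37 and 246. On the 10 arrays of the comparison alone none passed in limma, with or without the block (4528 and 4658 at an unadjusted p under 0.05), nor did any in naive rats on their 8 arrays (3450 and 3939). Counts were 244 (47 and 197) on 49 arrays, 142 (21 and 121) on 50, and 601 (249 and 352) on 50 with array weights, chosen after seeing the data. They were 138 (31 and 107) at equal medians, 352 (80 and 272) after quantile normalization again, 281 (40 and 241) without dim probe sets and 510 (165 and 345) with array weights. Leaving out 1 MIA rat gave 26 to 116 (3 to 21 higher, 23 to 96 lower), lowest without replicate 3, and 1 naive rat 151 to 285 (19 to 37 and 131 to 248). With the block, chosen after seeing the data, these were 355 to 595 (51 to 176 and 304 to 484) and 689 to 781 (143 to 190 and 546 to 591). In naive rats (66 calls) the counts were 602 with the block, 159 with a random block, 122 on 49 arrays, 0 on 50, 31 at equal medians, 147 after quantile normalization again, 100 with ordinary t statistics, 115 with array weights and 130 without dim probe sets. Leaving out 1 naive rat gave 0 to 38 and 1 MIA rat 20 to 99, and with the block 217 to 504 and 498 to 610. The difference between treatments stayed at 0 calls in all of these. The causes were not tested.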

Other observations

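Some transcripts told rats apart on all 5 days, a pattern noticed after the values were seen and given without a test. For 46 transcripts, all arrays of at least 2 of the 9 rats lay above all arrays of the other rats, which were again at least 2. None of the 46 was called at day 21 in MIA rats in the model without the block. There the spread between rats enters the standard error, so transcripts picked for that spread could hardly pass. Xpo7, which is among them, passed with the block. Ly6cl1, a gene of the Ly6 surface protein family, had signals of 7.16 to 9.09 in MIA replicate 1 and naive replicate 1 and of 0.90 to 1.63 in the other 7 rats. Trim30d, of a family of ubiquitin ligases, was at 5.25 or more in MIA replicates 1, 5 and 6 and naive replicate 3 and at 3.70 or less in the others, and RT1-CE4, an MHC class I gene, split the rats in another way. The sets of high rats numbered 29. The most frequent, MIA replicates 1, 2 and 3 with naive replicates 1 and 3, held for 16 transcripts. These include Xpo7, Kel and Tmcc2 of the erythroid list and the mitotic genes Tpx2 and Hjurp. This set crosses the treatments, and the part of these differences in the other results was not tested.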
